A study of Mus musculus with 24 samples.

Results

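The genes described here encode subunits of the Polycomb repressive complexes PRC1 and PRC2. They are 34 named genes, 23 of PRC1 and 11 of PRC2, out of 23364 genes in the deposited count files. They were taken by symbol from a list of subunits and not by a cut on their measured values. The list was drawn up with earlier results of these data known. All 34 were found, and all 34 passed the filter on low counts, which left 21456 genes for testing.

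Polycomb complexes keep genes silent by marking their chromatin. PRC1 attaches ubiquitin to histone H2A through the RING-type ligases Ring1 and Rnf2, and PRC2 methylates histone H3 at H3K27 through Ezh1 or Ezh2. Mysm1, the gene deleted in these mice, encodes a deubiquitinase that removes the PRC1 mark from histone H2A. In blood stem cells Polycomb subunits are known for sustaining self-renewal, with Bmi1 and Cbx7 among the best studied.

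RNA was sequenced from bone marrow cells of C57BL/6 mice aged 8 to 12 weeks, males and females pooled, in 24 libraries. The KO group was Mysm1 fl/fl CreERT2 mice given tamoxifen, which switches on the inducible Cre and removes exon 3 of Mysm1. The Het group was Mysm1 +/fl CreERT2 mice given the same tamoxifen course of 8 injections at 0.15 mg per gram over 16 days, so it shares the drug and the Cre and has 1 floxed allele. The Sham group was Mysm1 fl mice given corn oil alone. For these no Cre is named in the labels, and the promoter driving CreERT2 is likewise not given in the sources used here. From each genotype 3 populations were sorted within the Lin-cKit+Sca1+CD150+Flt3- gate: haematopoietic stem cells (HSC, CD34-CD48-) and the multipotent progenitors MPP1 (CD34+CD48-) and MPP2 (CD34+CD48+). Each population had 3 KO, 3 Het and 2 Sham libraries, numbered 1, 2_3 and 4, with no Sham library numbered 1. Mice were pooled within a sample and the number of mice in a pool is not stated, so the p-values measure the spread between these pools.

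Library totals ran from 18823971 to 53196624 counts. Levels are given as counts per 1000000 (CPM) scaled by TMM, a correction for library composition. The libraries HSC KO 1 and HSC Het 2_3 had the fewest genes detected, 15740 and 15932. The MPP2 Het library 2_3 carried 3552 CPM summed over 13 neutrophil genes, against 56.9 to 1202 CPM in all other libraries. Summed B cell genes reached at most 18.8 CPM and macrophage genes 39.1 CPM in any library. Genes of stroma and endothelium summed to 82.9 to 168 CPM. Late erythroid genes summed to 509 to 1593 CPM over all libraries, with 612 to 776 CPM in Het HSC and 735 to 1057 CPM in Het MPP2. In the Het libraries Cd48, a marker that separates the MPP2 gate, averaged 1.55 ± 0.64 CPM (SD, n = 3) in HSC and 18.5 ± 5.21 CPM in MPP2, and Cd34 averaged 75.2 CPM in HSC and 132 CPM in MPP1. Ly6a, which encodes Sca1, averaged 24.3 ± 0.591 CPM in HSC and 2.70 ± 2.08 CPM in MPP2, although Sca1+ cells were gated in both. Mysm1 itself, counted over the whole gene, differed between KO and Het by a log2 change of -0.18 ± 0.14 (SE) in HSC, -0.20 ± 0.14 in MPP1 and -0.15 ± 0.14 in MPP2. None of these passed the test, and counts over the whole gene do not single out the deleted exon.

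To compare levels between genes, CPM was divided by the length of the merged exons in the mm9 annotation. In Het HSC, Rbbp7, a histone-binding subunit of PRC2, had the highest level at 99.8 ± 16.1 CPM per kb (SD, n = 3). It ranked first among the 34 by the deposited gene lengths as well. Eed, the PRC2 subunit that reads trimethylated H3K27, stood at 34.0 ± 4.96 CPM per kb, and Mga, the DNA-binding subunit of a variant PRC1, at 31.0 ± 0.512 CPM per kb. Pcgf2, Phf19, Pcgf6 and Cbx8 were the lowest, at 1.99 to 2.59 CPM per kb. The neighbours Eed and Mga did not differ beyond their spread. The deposited lengths differ from the annotated ones for many subunits, so that Mtf2 had rank 4 by annotated length and rank 24 by deposited length.

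**Figure D1:**
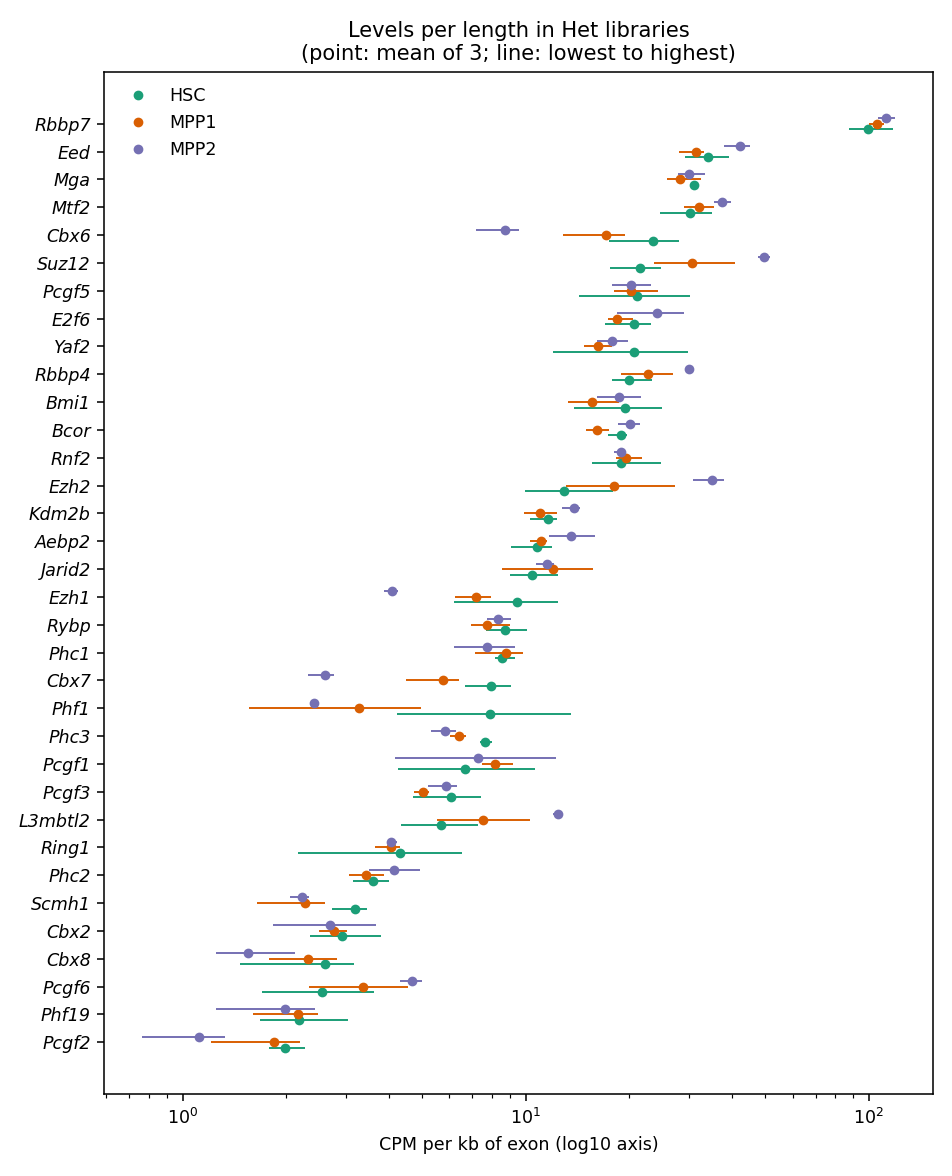
Level of each of the 34 subunits in Het libraries, in CPM per kb of merged exon on a log10 axis, as the mean of 3 libraries (point) and the range (line) in HSC, MPP1 and MPP2. Rbbp7 is the highest and Pcgf2 the lowest in HSC, and Ezh1 and Ezh2 lie close together in HSC and far apart in MPP2.

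The alternative enzymes differed in level. Rnf2 stood at 18.9 ± 5.13 CPM per kb and Ring1 at 4.29 ± 2.19 CPM per kb in Het HSC. The 2 methyltransferases had close levels in Het HSC, with Ezh2 at 12.9 ± 4.37 and Ezh1 at 9.43 ± 3.14 CPM per kb. Their order there depends on the lengths used, since the deposited lengths give 15.1 for Ezh2 and 16.7 for Ezh1. In Het MPP2 the levels were 34.9 ± 3.73 for Ezh2 and 4.09 ± 0.205 for Ezh1, and Ezh2 was the higher by either length.

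The first question was whether loss of Mysm1 changed the mRNA of the complex that writes the mark it removes. In HSC, KO was compared with Het by edgeR's quasi-likelihood test, with p-values adjusted over all genes tested and a threshold of 0.05. None of the 34 subunits passed, where 0.615% of all genes tested did. DESeq2 also called 0 of 34, against 3.23% of all genes, and limma-trend 0, against 1.1%. Every share given for DESeq2, here and below, is over the genes to which it gave an adjusted p, 20083 in this comparison. It is not on the same base as the shares for edgeR. At an unadjusted p under 0.05 there were 11 subunits, where 14.5% of all genes reached that level. The median log2 change of the subunits was -0.01, against 0.03 over all genes tested. In bulk samples, fewer cells of a type and less RNA per cell cannot be told apart, which holds for every difference below.

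The ligases and their core partner gave the following levels in HSC. Rnf2 was at 49.5, 47.2 and 75.2 CPM in the Het libraries 1, 2_3 and 4 and at 63.8, 54.0 and 73.8 CPM in the KO libraries. Ring1 was at 7.02, 13.6 and 21.2 CPM in Het and at 15.6, 10.7 and 13.4 CPM in KO. Bmi1, the PCGF subunit that activates the ligase in canonical PRC1, was at 54.9, 99.0 and 78.8 CPM in Het and at 69.3, 71.9 and 70.7 CPM in KO. For each of these 3 genes the KO libraries lay within or across the range of the Het libraries. The log2 changes were 0.16 (95% interval -0.20 to 0.51) for Rnf2, -0.08 (-0.70 to 0.55) for Ring1 and -0.14 (-0.48 to 0.21) for Bmi1, with adjusted p of 0.784, 0.980 and 0.818 (edgeR).

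The core and catalytic subunits of PRC2 were compared in the same way in HSC. Suz12, a scaffold that PRC2 needs for activity, was at 110, 87.4 and 123 CPM in Het and at 212, 124 and 145 CPM in KO. All 3 KO libraries were above all 3 Het libraries, the nearest pair by little. The log2 change was 0.59 ± 0.19 (SE) with an adjusted p of 0.155 (edgeR). Ezh2 was at 111, 61.7 and 67.4 CPM in Het and at 176, 99.1 and 102 CPM in KO. Het library 1 lay above KO libraries 2_3 and 4, and the log2 change was 0.65 ± 0.30, adjusted p = 0.33 (edgeR). Ezh1 was at 45.9, 92.5 and 72.1 CPM in Het and at 44.8, 45.1 and 52.8 CPM in KO, so the Het library 1 fell among the KO libraries. Its log2 change was -0.56 ± 0.19, adjusted p = 0.163 (edgeR). Without Het library 1 it was -0.79 with an adjusted p of 0.0178, and Ezh1 was then the single subunit past the threshold. Eed was at 64.8, 86.8 and 74.7 CPM in Het and at 86.8, 71.1 and 79.7 CPM in KO, with a log2 change of 0.07 ± 0.17.

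Among the other subunits in HSC, 3 genes in all had KO and Het libraries that did not overlap, where 11.6% of all genes tested did not. They were Suz12 and Bcor, higher in KO, and Cbx7, lower in KO. Cbx7, a chromodomain protein that tethers canonical PRC1 to methylated H3K27, was at 25.3, 34.4 and 30.3 CPM in Het and at 15, 18.8 and 22.9 CPM in KO. Its log2 change was -0.67 ± 0.25, adjusted p = 0.214 (edgeR). L3mbtl2, a subunit of the E2f6-type variant PRC1, differed by 0.60 ± 0.20 on the log2 scale (adjusted p = 0.163) and Cbx6 by -0.43 ± 0.17 (adjusted p = 0.238). Outside the subunits, 4 of 25 S phase genes and 2 of 20 genes of G2 and M phase rose in KO HSC and none fell. Of all genes tested, 0.322% passed as higher. Mcm2, part of the replicative helicase, changed by 0.88 ± 0.20 (adjusted p = 0.0323), and Cdc20, an activator of mitotic exit, by 1.40 ± 0.31 (adjusted p = 0.0414). The 25 S phase genes summed to 3699, 2168 and 2395 CPM in the Het libraries 1, 2_3 and 4 and to 5148, 4531 and 3368 CPM in the KO libraries, and Het library 1 lay above KO library 4. The 20 genes of G2 and M phase summed to 1970, 777 and 930 CPM in Het and to 5263, 2609 and 2049 CPM in KO, and these did not overlap. The part of both gene groups in the values of Ezh2 and Suz12 was not tested.

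**Figure D2:**
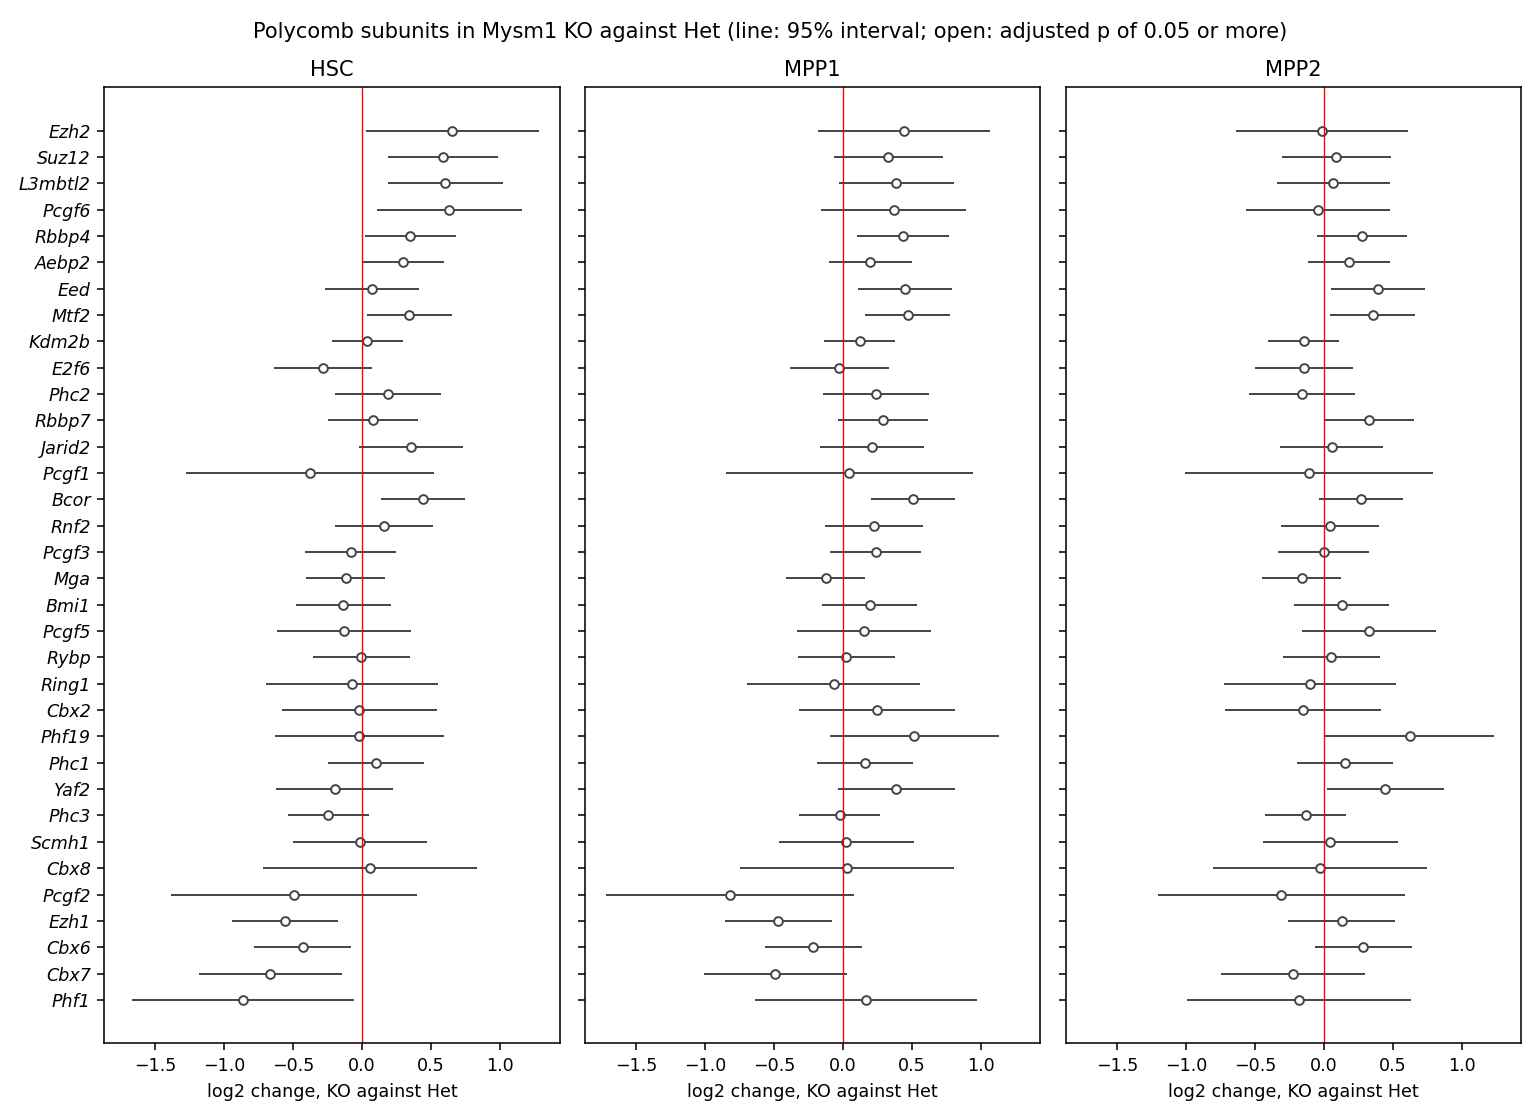
Log2 change of the 34 subunits in KO against Het (point) with its 95% interval (line) in HSC, MPP1 and MPP2, in the order of their change between MPP2 and HSC in Het. Every point is open, since 0 of 34 passed an adjusted p of 0.05 in any of the 3 populations.

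In MPP1, 0 of 34 subunits passed in KO against Het, where 0.0559% of all genes tested did. At an unadjusted p under 0.05 there were 5 subunits, where 8.67% of all genes reached it. DESeq2 called 0 subunits, against 0.356% of all genes, and limma-trend 0, against 0.0792%. The median of the subunits was 0.20 against -0.11 over all genes tested. KO libraries lay above all Het libraries for 7 subunits, where 8.49% of all genes did, and below them for 2, where 13.2% did. The 7 were Bcor, Mtf2, Eed, Yaf2, Rbbp7, Aebp2 and Rnf2, and the 2 were Ezh1 and Pcgf2. Ezh1 was at 46.2, 59.0 and 54.6 CPM in Het and at 36.3, 39.6 and 39.6 CPM in KO, a log2 change of -0.47 ± 0.19 with an adjusted p of 0.534 (edgeR). Rnf2 was at 55.6, 66.2 and 57.0 CPM in Het and at 69.7, 73.3 and 66.3 CPM in KO, a log2 change of 0.23 ± 0.17 with an adjusted p of 0.670 (edgeR). Every KO library was above every Het library for Rnf2, the nearest pair by little. Eed was at 73.6, 72.7 and 62.2 CPM in Het and at 121, 74.5 and 89.6 CPM in KO, a log2 change of 0.45 ± 0.17 with an adjusted p of 0.462 (edgeR). Ezh2 (0.44), Suz12 (0.33), Bmi1 (0.19) and Ring1 (-0.07) had overlapping libraries, with adjusted p from 0.603 to 0.949.

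In MPP2, 0 of 34 subunits passed in KO against Het, where 0.415% of all genes tested did. The unadjusted p was under 0.05 for 5 subunits, against 5.63% of all genes. DESeq2 called 0, against 1.26% of all genes, and limma-trend 0, against 0.466%. KO libraries lay above all Het libraries for 8 subunits, where 9.06% of all genes did, and below them for 1, where 5.6% did. Those above were Mtf2, Eed, Yaf2, Phf19, Rbbp7, Bcor, Rbbp4 and Cbx6, and the 1 below was Phf1. Eed was at 99.8, 84.3 and 96.3 CPM in Het and at 140, 105 and 123 CPM in KO, a log2 change of 0.39 ± 0.17 with an adjusted p of 0.764 (edgeR). The 2 Sham libraries of MPP2 had 122 and 126 CPM of Eed, within the range of the KO libraries. Sham was also above all Het libraries for Rbbp7 (374 and 412 CPM, Het 309 to 348), Rbbp4 (278 and 317 CPM, Het 256 to 271) and Bcor. For Mtf2, Yaf2, Phf19 and Cbx6 the Sham and Het libraries overlapped. In MPP2 all Het libraries lay below both Sham libraries for 8 of 34 subunits, where 11.9% of all genes did. They lay above them for 1, where 15.8% did. Ezh2 was at 235, 190 and 224 CPM in Het and at 243, 175 and 225 CPM in KO, a log2 change of -0.01 ± 0.30. The changes of Rnf2, Ring1, Bmi1, Suz12 and Ezh1 lay between -0.10 and 0.13, and their libraries overlapped.

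Bcor, which assembles the Pcgf1-type variant PRC1, was singled out after its values were seen. It was at 125, 141 and 142 CPM in Het HSC and at 212, 168 and 176 CPM in KO HSC. In MPP1 the values were 126, 108 and 116 CPM in Het and 177, 168 and 152 CPM in KO. The KO libraries were above the Het libraries in all 3 populations, in MPP2 by little at the closest pair. The log2 changes were 0.44 ± 0.15, 0.51 ± 0.15 and 0.27 ± 0.15 in HSC, MPP1 and MPP2, with adjusted p of 0.160, 0.275 and 0.955 (edgeR). Sham libraries had 94.3 and 152 CPM of Bcor in HSC, 133 CPM each in MPP1 and 159 CPM each in MPP2. In every population the higher Sham library was above all Het libraries, and in MPP2 both lay within the KO range. The share of all genes with KO above Het in all 3 populations was not counted.

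Whether the KO effect differed between populations was tested as an interaction. No subunit passed for MPP1 against HSC, where 0% of all genes tested did, or for MPP2 against HSC, where 0.0326% did. An unadjusted p under 0.05 was reached by 0 subunits in the first, against 4.87% of all genes, and by 3 in the second, against 7.29% (edgeR). DESeq2 called 0 in both, against 0.101% and 0.299% of all genes, and limma-trend 0 in both, against 0% and 0.0233%. The smallest belonged to Cbx6, whose KO effect was higher in MPP2 than in HSC by 0.72 ± 0.24 on the log2 scale (adjusted p = 0.532), and to Ezh1, at 0.69 ± 0.27 (adjusted p = 0.583).

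The Sham libraries gave a second control. Between Het and Sham 0 of 34 subunits passed in HSC, MPP1 or MPP2, where 0% of all genes tested did in each. At an unadjusted p under 0.05 there were 4, 0 and 1 subunits, where 6.92%, 0.965% and 5.32% of all genes reached it. DESeq2 called 0 subunits in each population, against 0.385%, 0.022% and 0.106% of all genes, and limma-trend 0, against 0%. Between KO and Sham in HSC, Ezh2 alone passed, where 2.28% of all genes tested did. The unadjusted p was under 0.05 for 13 subunits, against 14.9% of all genes. Ezh2 was at 36.4 and 55.9 CPM in the Sham libraries 2_3 and 4, below every Het and KO library of HSC. The log2 change from Sham to KO was 1.45 ± 0.35 (adjusted p = 0.0376, edgeR), and from Sham to Het it was 0.79 ± 0.34 (adjusted p = 0.718). These comparisons share libraries with KO against Het and are not separate evidence. Sham also had no library 1, and Ezh2 was highest in library 1 in every KO and Het group. The call did not hold without HSC KO 1 (adjusted p = 0.168), without Sham 2_3 (0.404) or without Sham 4 (0.0697). Without KO 2_3 there were 3 calls and without KO 4 there were 2, with Suz12 added in each. Suz12 and Bcor had adjusted p of 0.0508 and 0.0553 (edgeR). Both were called with Ezh2 by DESeq2, which called 9.82% of the 11737 genes it gave an adjusted p. Limma-trend called the same subunits, where 3.16% of all genes passed. In KO against Sham, 0 of 34 passed in MPP1 and in MPP2, where 0.121% and 0.629% of all genes did. The unadjusted p was under 0.05 for 7 subunits in MPP1 and 2 in MPP2, against 10.4% and 5.73% of all genes. DESeq2 called 0 in each, against 1.21% and 1.97%, and limma-trend 0, against 0.168% and 0.713%.

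**Figure D3:**
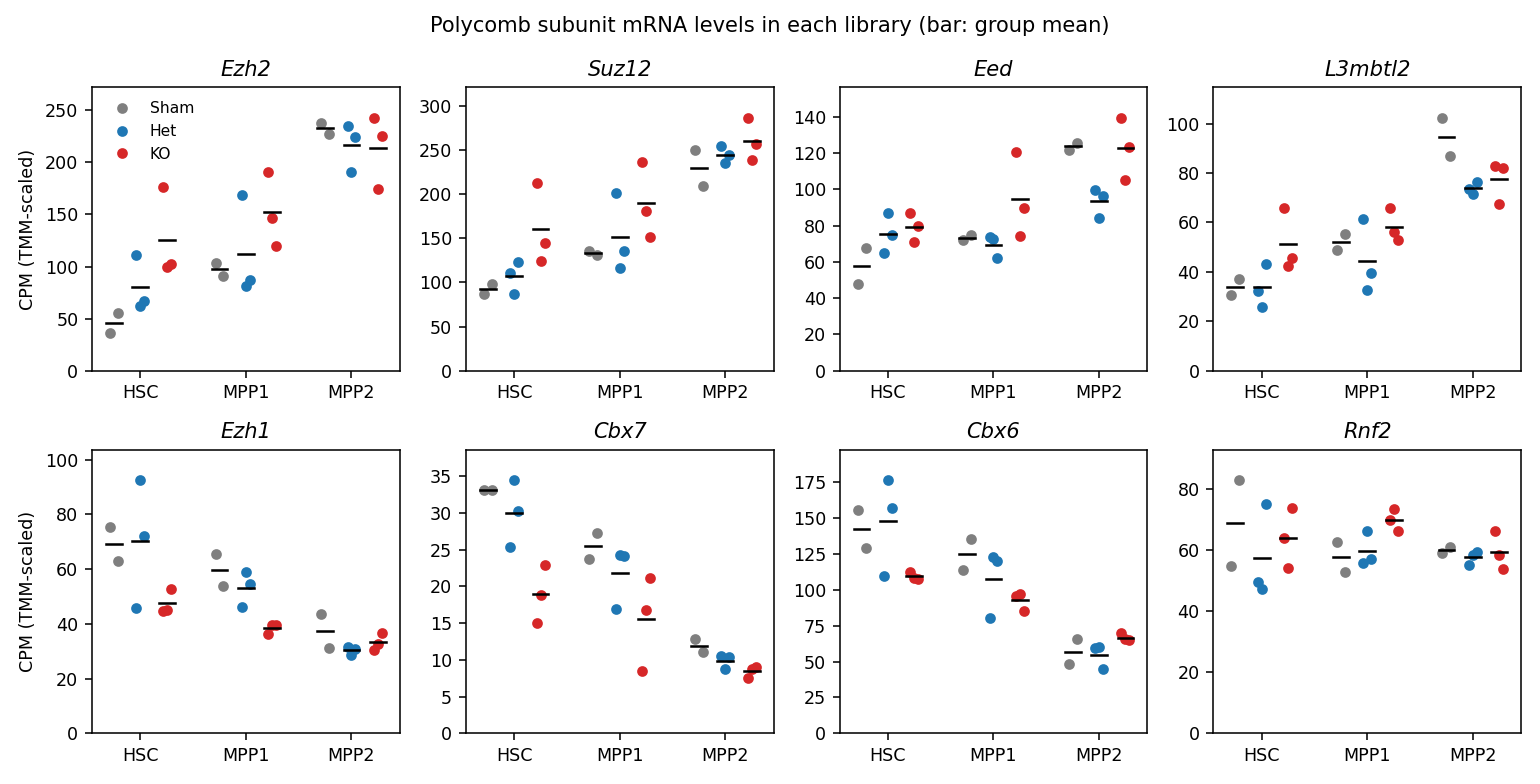
CPM of 8 subunits in each of the 24 libraries, by population and genotype, with the group mean as a bar. Ezh2, Suz12 and L3mbtl2 are higher and Ezh1, Cbx7 and Cbx6 lower in MPP2 than in HSC Het, while Rnf2 stays between 47.2 and 82.8 CPM in all libraries.

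The second question was how the subunits differ along the sorted populations. Between HSC and MPP2 of the Het mice, 9 of 34 subunits passed, where 18% of all genes tested did. The libraries did not overlap for 14 subunits, where 28.2% of all genes did not. Ezh2, Suz12, Rbbp4, L3mbtl2 and Pcgf6 rose, and Ezh1, Cbx6, Cbx7 and Phf1 fell. DESeq2 called 10, against 24.1% of all genes, and limma-trend 9, against 19.2%. The median of the subunits was -0.05, against -0.01 over all genes tested.

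Among the methyltransferases the 2 alternatives moved in opposite directions. Ezh2, the more active enzyme, was at 111, 61.7 and 67.4 CPM in HSC and at 235, 190 and 224 CPM in MPP2. The lowest MPP2 library exceeded the highest HSC library, and the log2 change was 1.43 ± 0.30 (adjusted p = 0.00233, edgeR). Ezh1, the form known for persisting in cells that divide little, was at 45.9, 92.5 and 72.1 CPM in HSC and at 31.6, 28.7 and 30.9 CPM in MPP2. Every MPP2 library was below every HSC library, with a log2 change of -1.21 ± 0.19 (adjusted p = 3.78e-05, edgeR). As a description, the ratio of Ezh2 to Ezh1 CPM, not corrected for length, was 2.42, 0.667 and 0.935 in Het HSC. It was 3.65, 1.38 and 1.60 in Het MPP1 and 7.42, 6.63 and 7.24 in Het MPP2. In the KO libraries the ratio was 3.93, 2.20 and 1.93 in HSC, 5.26, 3.71 and 3.03 in MPP1 and 8.00, 5.33 and 6.14 in MPP2. The MPP2 libraries of the 3 genotypes overlapped in this ratio, and in HSC the Het library 1 lay within the KO range.

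**Figure D4:**
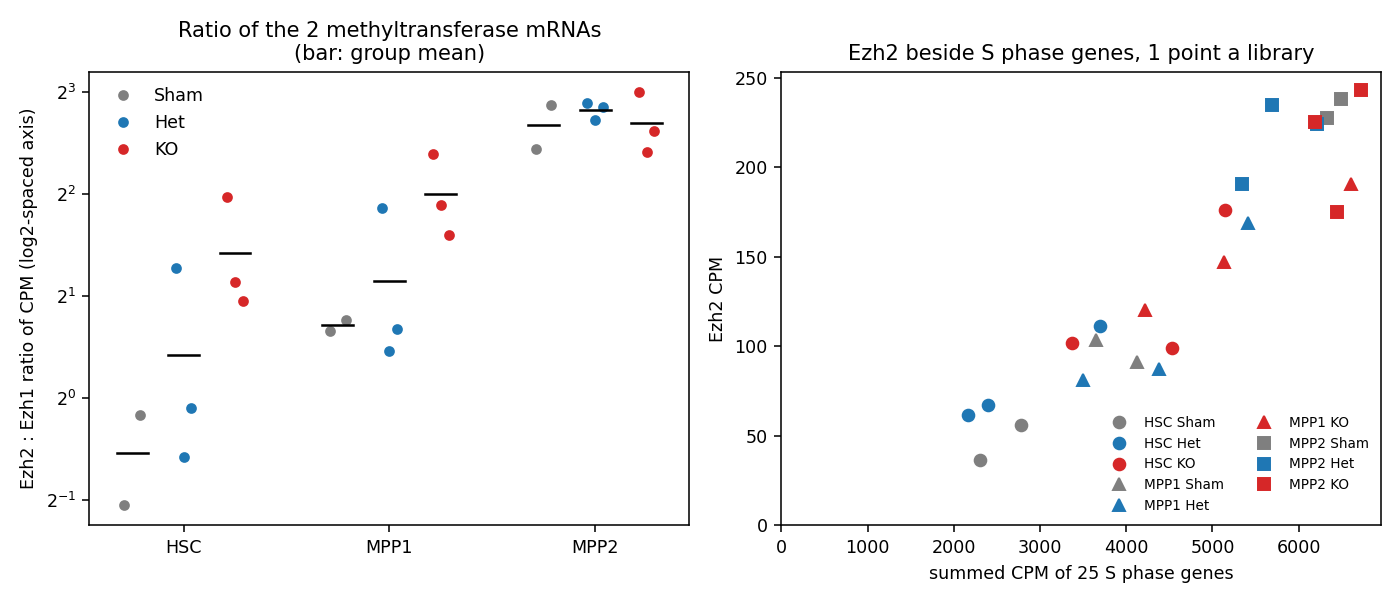
Left, ratio of Ezh2 to Ezh1 CPM in each library on a log2-spaced axis, with the group mean as a bar; right, Ezh2 CPM against the summed CPM of 25 S phase genes, 1 point for each of the 24 libraries. The MPP2 libraries lie at ratios of 5.33 to 8.00, above every HSC and MPP1 library, of which MPP1 KO 1 at 5.26 is the nearest.

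Of the PRC2 core, Suz12 rose from 110, 87.4 and 123 CPM in HSC to 255, 235 and 244 CPM in MPP2. Its change was 1.196 ± 0.195 on the log2 scale (adjusted p = 6.03e-05, edgeR), and the groups were well apart. Rbbp4, a histone chaperone that also serves other complexes, went from 164, 157 and 204 CPM to 256, 259 and 271 CPM. Its log2 change was 0.58 ± 0.16 (adjusted p = 0.0101, edgeR). The call was lost in 4 of 14 alternative fits, and without HSC Het 2_3 the adjusted p was 0.0694. Eed and Rbbp7 had log2 changes of 0.31 ± 0.17 and 0.17 ± 0.16, with adjusted p of 0.231 and 0.562. Of the 5 accessory subunits, which steer PRC2 to its sites, Phf1 alone passed. Phf1 was at 10.3, 33.0 and 14.0 CPM in HSC and at 5.99, 5.86 and 5.71 CPM in MPP2, a log2 change of -1.71 ± 0.40 (adjusted p = 0.00265, edgeR). HSC Het 2_3 is high among these values, and without it the change was -1.05 with an adjusted p of 0.0781. The call of Phf1 was lost in 2 of 14 alternative fits. Jarid2, Aebp2, Mtf2 and Phf19 had changes from -0.14 to 0.33 and adjusted p from 0.131 to 0.848.

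On the PRC1 side 2 of the 4 chromodomain subunits, Cbx6 and Cbx7, fell. Cbx6 was at 110, 177 and 157 CPM in HSC and at 59.2, 60.1 and 45.0 CPM in MPP2, a log2 change of -1.43 ± 0.18 (adjusted p = 1.08e-06, edgeR). Cbx7 went from 25.3, 34.4 and 30.3 CPM to 10.5, 8.81 and 10.3 CPM, a log2 change of -1.60 ± 0.26 (adjusted p = 4.57e-05, edgeR). For both genes no MPP2 library came near the HSC libraries. Cbx8 and Cbx2 had changes of -0.74 ± 0.38 and -0.12 ± 0.28, with adjusted p of 0.204 and 0.861. L3mbtl2 rose from 32.4, 25.8 and 43.2 CPM to 73.4, 71.4 and 76.5 CPM, a log2 change of 1.13 ± 0.21 (adjusted p = 0.000198, edgeR). Pcgf6, its partner in the same variant complex, was at 9.54, 6.95 and 14.8 CPM in HSC and at 20.4, 19.3 and 17.6 CPM in MPP2. It passed with an adjusted p of 0.0165 (edgeR), and missed the threshold in 5 of 14 alternative fits, with adjusted p up to 0.135. Among these were the fits without HSC Het 2_3 (0.117) and without MPP2 Het 1 (0.0614). The ligases Rnf2 and Ring1 had changes of 0.01 (95% interval -0.35 to 0.36) and -0.08 (-0.71 to 0.54). Rnf2 was at 54.9, 58.3 and 59.4 CPM and Ring1 at 12.8, 13.7 and 13.0 CPM in Het MPP2, inside their ranges in HSC. Bmi1 was at 64.1, 73.3 and 86.3 CPM in MPP2, with a change of -0.06 (-0.40 to 0.29). Neither Phc1, Phc2, Phc3 and Scmh1, whose proteins polymerise canonical PRC1, nor the remaining PCGF and variant subunits passed.

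The subunits Cbx6, Ezh1, Cbx7, Suz12, L3mbtl2 and Ezh2 kept their call in all 14 alternatives tried for Het MPP2 against HSC. Of these, Suz12, L3mbtl2 and Ezh2 rose and Cbx6, Ezh1 and Cbx7 fell. In the same comparison 23 of 25 S phase genes and 20 of 20 genes of G2 and M phase rose, where 9.59% of all genes tested passed as higher. The S phase genes summed to 2168 to 3699 CPM in Het HSC, 3501 to 5410 CPM in Het MPP1 and 5343 to 6212 CPM in Het MPP2. The genes of G2 and M phase summed to 777 to 1970 CPM in Het HSC and 7372 to 9637 CPM in Het MPP2. The part of the cell cycle genes in the changes of the subunits was not tested. Some exons are shared with other genes on mm9: 18.7% of the Cbx6 exon length overlaps Npcd on the same strand, and 17.2% of L3mbtl2 and 18.0% of Rbbp4 overlap genes on the other strand. Reads in the part shared with Npcd cannot be assigned to Cbx6 by strand. Whether the counting used strand is not given in the sources used here, which leaves L3mbtl2 and Rbbp4 uncertain as well.

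The promoters of 2 subunits that rose and 2 that fell between HSC and MPP2 are shown, to set the sequences of the opposite directions side by side. Each is the 250 bases before the transcription start from RefSeq on GRCm38.p6, a later build than the mm9 of the counts, written 5′ to 3′ on the gene's strand. Capitals mark CCAAT boxes, the word bound by NF-Y, and the E2F words TTTCCCGC, TTTGGCGC and TTTCGCGC, on either strand. The regions are chr6:47595031-47595280 (minus strand) for Ezh2, chr11:79992856-79993105 (plus) for Suz12, chr11:101226464-101226713 (minus) for Ezh1 and chr15:79932647-79932896 (minus) for Cbx7.
Ezh2: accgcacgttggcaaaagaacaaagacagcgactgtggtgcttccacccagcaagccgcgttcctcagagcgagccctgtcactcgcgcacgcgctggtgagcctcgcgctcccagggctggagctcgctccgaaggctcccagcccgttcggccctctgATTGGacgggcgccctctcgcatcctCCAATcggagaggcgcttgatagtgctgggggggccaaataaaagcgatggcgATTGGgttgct
Suz12: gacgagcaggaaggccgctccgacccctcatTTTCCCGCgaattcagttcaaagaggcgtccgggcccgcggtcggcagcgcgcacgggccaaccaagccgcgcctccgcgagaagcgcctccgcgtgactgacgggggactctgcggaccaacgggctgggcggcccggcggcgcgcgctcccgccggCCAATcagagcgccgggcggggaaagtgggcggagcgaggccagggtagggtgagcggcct
Ezh1: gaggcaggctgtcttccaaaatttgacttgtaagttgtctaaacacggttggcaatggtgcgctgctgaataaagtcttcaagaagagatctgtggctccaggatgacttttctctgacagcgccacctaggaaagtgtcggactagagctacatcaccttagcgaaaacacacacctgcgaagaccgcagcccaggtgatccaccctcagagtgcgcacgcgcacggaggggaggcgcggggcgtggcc
Cbx7: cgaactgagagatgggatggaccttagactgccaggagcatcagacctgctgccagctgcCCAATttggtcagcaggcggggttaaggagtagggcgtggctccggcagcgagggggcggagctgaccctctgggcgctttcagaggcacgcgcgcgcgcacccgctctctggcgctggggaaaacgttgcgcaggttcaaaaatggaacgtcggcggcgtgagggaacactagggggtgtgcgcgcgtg
The Suz12 promoter holds the E2F word TTTCCCGC, beginning 219 bases before the start, and a CCAAT box beginning 61 bases before it. The Ezh2 promoter holds 3 CCAAT boxes and none of the 3 E2F words, the Cbx7 promoter holds 1 CCAAT box, and the Ezh1 promoter holds neither kind. The table used has 43 promoters of 30 subunits. An E2F word was found in 2 of these 43, those of Suz12 and Phf19, and in 1.53% of 32851 promoters of all genes. A CCAAT box was found in 14 of 43 and in 33.8% of all promoters. The median GC content was 64.8% in the promoters of the subunits and 52.4% in all promoters. These matches describe the letters in this window and nothing more.

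**Figure D5:**
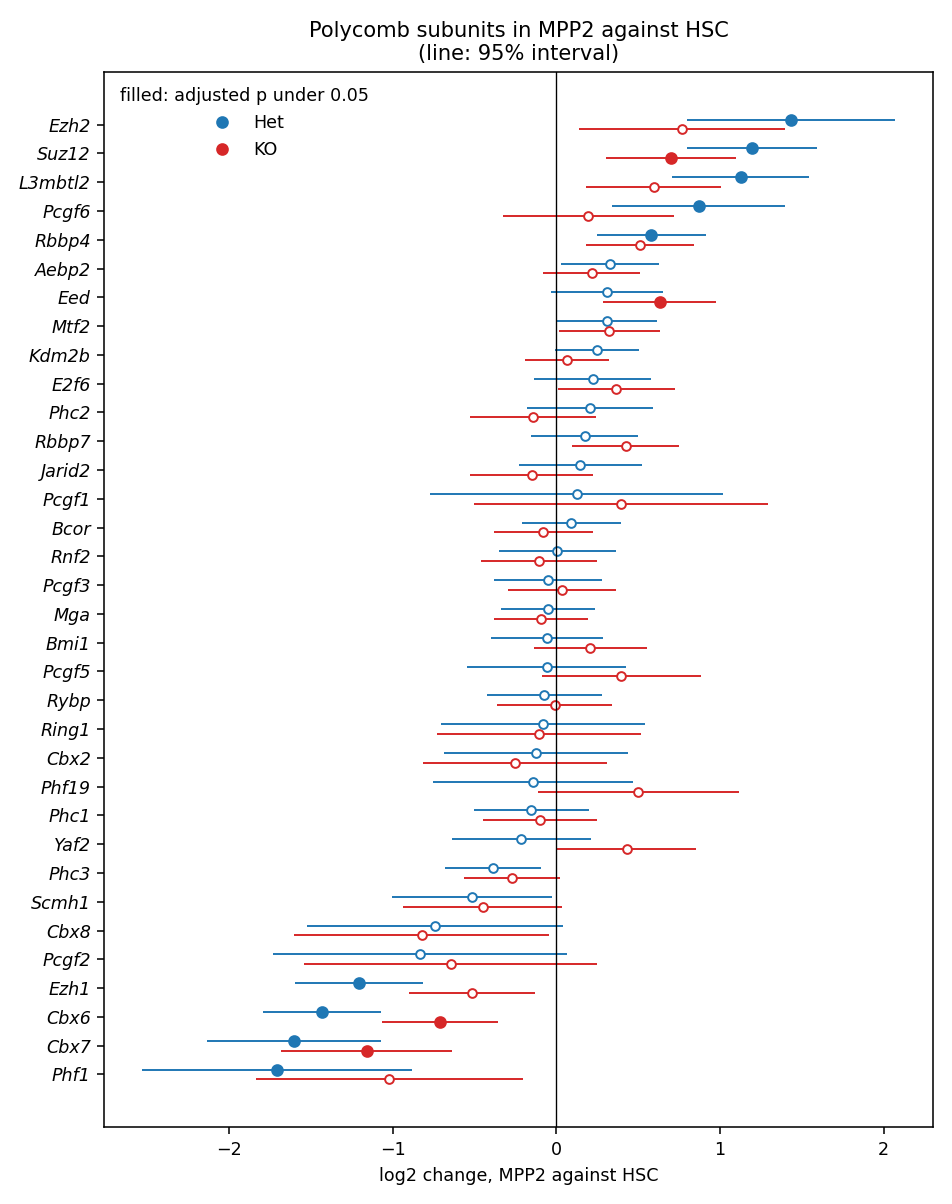
Log2 change of the 34 subunits in MPP2 against HSC (point) with its 95% interval (line), in Het and in KO, ordered by the change in Het. Filled points passed an adjusted p of 0.05: 9 in Het and 4 in KO.

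The mean levels of these 9 genes in Het MPP1 lay between those of HSC and MPP2. In MPP1 against HSC of the Het mice 0 of 34 subunits passed, where 0.014% of all genes did. At an unadjusted p under 0.05 there were 4 (edgeR), against 9.89% of all genes. DESeq2 called 0, against 1.15%, and limma-trend 0, against 0.0419%. Suz12 had a change of 0.50 ± 0.19, Cbx6 of -0.45 ± 0.17 and Ezh1 of -0.40 ± 0.19, with adjusted p of 0.400, 0.384 and 0.494. In MPP2 against MPP1 of the Het mice 5 of 34 passed, where 7.49% of all genes did. DESeq2 called 7, against 18% of the 13935 genes it gave an adjusted p, and limma-trend 6, against 8.15% of all genes. Cbx6 fell by 0.98 (adjusted p = 0.000475), Cbx7 fell by 1.14 (0.005) and Ezh1 fell by 0.81 (0.00737), while Suz12 rose by 0.70 (0.0241) and L3mbtl2 by 0.73 (0.0247), all on the log2 scale. Cbx7 was at 17, 24.2 and 24.2 CPM, Suz12 at 201, 117 and 135 CPM and Cbx6 at 80.6, 123 and 120 CPM in Het MPP1. Of the Het MPP1 libraries, number 1 was the closest to MPP2 in all 3 genes. Its S phase genes summed to 5410 CPM, against 3501 and 4385 CPM in the other MPP1 Het libraries. The calls of Suz12 and L3mbtl2 were lost without MPP1 Het 2_3, without MPP1 Het 4, without MPP2 Het 1 or without MPP2 Het 4, which left 2 to 3 calls, among them Cbx6 and Cbx7 each time.

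In the KO mice, 4 of 34 subunits passed in MPP2 against HSC, where 6.04% of all genes did. DESeq2 called 7, against 17.3% of the 13056 genes it gave an adjusted p, and limma-trend 4, against 6.42% of all genes. Cbx7 was at 15, 18.8 and 22.9 CPM in HSC and at 7.58, 8.74 and 9.07 CPM in MPP2, a log2 change of -1.16 ± 0.26 (adjusted p = 0.00656, edgeR). Cbx6 was at 113, 109 and 107 CPM in HSC and at 69.6, 65.5 and 65.3 CPM in MPP2, a log2 change of -0.71 ± 0.17 (adjusted p = 0.0126, edgeR). In both genes every MPP2 library was below every HSC library. Eed rose by 0.63 ± 0.17 on the log2 scale (adjusted p = 0.0218) and Suz12 by 0.70 ± 0.19 (adjusted p = 0.0282). Suz12 was at 287, 239 and 257 CPM in KO MPP2, and Eed at 140, 105 and 123 CPM. Ezh2, with a change of 0.77 ± 0.30, and Ezh1, with -0.52 ± 0.19, had adjusted p of 0.157 and 0.108. No call was left without MPP2 KO 1, 1 was left without HSC KO 4 or without MPP2 KO 4, and 2 without HSC KO 2_3. Without HSC KO 1 there were 7 calls, with Ezh2, L3mbtl2 and Rbbp4 added, in a fit of the compared groups alone 8, and without both HSC libraries with few genes 9. In MPP1 against HSC of the KO mice 0 of 34 passed, where 0% of all genes did, and 0 had an unadjusted p under 0.05 (edgeR), against 2.42% of all genes. In MPP2 against MPP1 of the KO mice 0 of 34 passed, where 0.969% of all genes did, and 4 had an unadjusted p under 0.05 (edgeR), against 10.5% of all genes. In these comparisons DESeq2 called 0 and 1, against 0.0484% and 5.4% of all genes, and limma-trend 0 in each, against 0% and 1.04%. Without MPP1 KO 1, Cbx7 passed.

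Genes that work with or against the complexes were examined beside them. Of 19 other PRC1 partners, 0 passed in KO against Het in any population, where 0.615%, 0.0559% and 0.415% of all genes did in HSC, MPP1 and MPP2. Those with the smallest adjusted p in HSC were Cbx3, a heterochromatin protein, at 0.70 ± 0.18 (adjusted p = 0.0564), and Tfdp1, the dimerisation partner of E2F proteins, at 0.71 ± 0.19 (adjusted p = 0.0614). In Het MPP2 against HSC, 5 partners rose and 1 fell, where 18% of all genes tested passed in either direction. Tfdp1 rose by 1.25 ± 0.19 (adjusted p = 1.91e-05) and Cbx3 by 0.92 ± 0.18 (adjusted p = 0.000377). Csnk2b rose by 0.55 (adjusted p = 0.0206) and Wdr5 by 0.54 (adjusted p = 0.0281). Of 10 enzymes that remove the H2A or H3K27 marks, Mysm1 included, 0 passed in KO against Het in any population. Usp22, an H2A and H2B deubiquitinase, fell by 0.57 on the log2 scale in Het MPP2 against HSC (adjusted p = 0.0103). It was the single call among the 10, where 18% of all genes tested passed. Of 10 trithorax-type subunits measured out of 14 listed, 0 passed in KO against Het. Ash2l (0.66), Setd1a (0.51), Rbbp5 (0.51) and Dpy30 (0.64) rose in Het MPP2 against HSC, where 18% of all genes tested passed. Their adjusted p ran from 0.00554 to 0.0372. These 4 serve the complexes that methylate H3K4, a mark of active promoters. At most 4 passing genes of a list were named, so the 4 need not be all that passed. The tests of these lists are edgeR's, and the trithorax symbols not matched were not analysed here.

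Of 30 genes known as Polycomb targets, 0 passed in KO against Het in HSC, MPP1 or MPP2, where 0.615%, 0.0559% and 0.415% of all genes did. An unadjusted p under 0.05 was reached by 1, 2 and 2 (edgeR), against 14.5%, 8.67% and 5.63% of all genes. Most of the 30 are developmental regulators near 0 counts in these cells. They summed to 112, 126 and 121 CPM in Het MPP1 and to 64.2, 111 and 81.0 CPM in KO MPP1. These did not overlap, the nearest pair by little. Sham MPP1 had 107 and 127 CPM, and in HSC and MPP2 the KO and Het sums overlapped. Eya1, a transcriptional coactivator of organ development, fell by 1.44 ± 0.20 on the log2 scale in Het MPP2 against HSC (adjusted p = 6.68e-06), and averaged 59.0 ± 15.8 CPM in HSC and 21.7 ± 4.75 CPM in MPP2 (SD, n = 3). In that comparison 18% of all genes tested passed. The sum of the 30 averaged 115 CPM in Het HSC and 62.9 CPM in Het MPP2, so Eya1 made up a large part of it. The part of single genes in the MPP1 sums was not tested. Cdkn2a, the cell cycle inhibitor locus that Bmi1 is known to repress, had 0 counts in all 3 Het libraries of HSC and of MPP1. It had 0, 0 and 9 counts in KO HSC, and 2, 34 and 2 counts in KO MPP1 (adjusted p = 0.544 against Het, edgeR). Sham MPP1 had 6 and 12 counts. No fold is given for Cdkn2a, since 34 of the 38 KO counts in MPP1 came from library 2_3 and the Sham libraries were not at 0.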

How the data were processed

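Whole-number read counts per gene were deposited for each of the 24 libraries. Per the labels' protocols, libraries were stranded, rRNA-depleted and paired-end. The submitters' processing notes name the mm9 build, featureCounts for counting, TopHat2 (version 2.0.9) with Bowtie (1.0.0), and Trimmomatic (0.33), among others. Whether counting used strand is not given in the sources used here. A series table of 24 normalized columns was not used. Counts were joined by gene symbol, filtered with filterByExpr and fitted in edgeR 4.0.16 (R 4.3.3) by TMM and the quasi-likelihood F test, two-sided, in 1 model of 9 groups with 15 residual degrees of freedom and Benjamini-Hochberg adjustment over 21456 genes. An SE is the log2 change divided by the root of F. Alternatives were RLE scaling, no filter, DESeq2 1.42.0, limma-trend (limma 3.58.1), a replicate block, fits on the groups compared only and leaving out libraries. The fit was tested on simulated data. Exon lengths come from the GENCODE annotation of mm9; each gene's deposited length is a second length.

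The subunits and the other lists were chosen with earlier results of these data known. Library values were given for subunits that passed in KO against Het, an interaction or a population comparison and for Ring1, Rnf2, Bmi1, Ezh1, Ezh2, Eed and Suz12, and full statistics for at most 8 a comparison by adjusted p. Of other lists, up to 4 passing genes, or up to 2 with the smallest adjusted p, were named.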

Additional observations from a re-analysis of the deposited data

How the results depend on the processing

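Each comparison was refitted under 11 to 17 alternatives, and counts are subunits past an adjusted p of 0.05. In Het MPP2 against HSC the count was 6 to 9 when libraries were left out, and no alternative moved it by more than 1.5 times. In KO against Het in HSC the count of 0 became 2 (Ezh2 and Suz12) with the replicate number as a block and 0 to 1 with a library left out. In KO against Sham in HSC the count of 1 became 2 with the block, 3 with DESeq2, 3 with limma-trend and 0 without both HSC libraries with few genes, and 0 to 3 with a library left out. In MPP2 against MPP1 the Het count of 5 became 8 without MPP1 Het 1 and MPP2 Het 2_3, an alternative chosen after seeing the data as was that for few genes, and 2 to 7 with a library left out. The KO count of 0 there became 1 with the block, 1 with DESeq2, 1 when only the groups compared were fitted and 0 to 1 with a library left out. In KO MPP2 against HSC the count of 4 became 7 with the block, 7 with DESeq2 and 8 when only the groups compared were fitted. It became 9 without both HSC libraries with few genes, and 0 to 7 with a library left out. DESeq2 called 17.3% of the 13056 genes it gave an adjusted p there, and edgeR 6.04% of 21456. The cause of these moves was not tested. The replicate numbers did not pair the libraries throughout. The correlation of deviations ran from -0.338 to 0.505 over 39 pairs, 10 were over 0.1, and in 0 of 15 comparisons were all. Between populations of the KO mice, pairs numbered 1 and 2_3 ran from 0.199 to 0.505 and those numbered 4 from -0.0265 to 0.0519. Ezh2 and the summed genes of G2 and M phase were highest in library 1 in every KO and Het group, and Sham had no library 1. What these shared values come from was not tested. Of 19 called values for single genes none changed sign. Values that were not called were followed only for Ring1, Rnf2, Bmi1, Ezh1, Ezh2, Eed and Suz12 in KO against Het. Their sign changed in 14 refits. Other values that were not called were not examined for sign. In HSC these were Bmi1 without Het 2_3 (0.0785) and without both few-gene libraries (0.0916), Eed without KO 1 (-5.26e-05) and without Het 1 (-0.0265), and Ring1 with the block (0.00209), with limma-trend (0.0475), without KO 2_3 (0.0525) and without Het 4 (0.358). In MPP1 it was Ring1 without KO 1 (0.221). In MPP2 these were Ezh2 without KO 2_3 (0.113), Het 1 (0.0479) and Het 4 (0.0122), and Rnf2 in the fit of the groups compared (-0.00539) and without KO 1 (-0.0376). With a library left out the HSC values ran from -0.332 to 0.0785 for Bmi1, -0.0265 to 0.184 for Eed and -0.393 to 0.358 for Ring1. They ran from -0.275 to 0.221 for Ring1 in MPP1 and from -0.114 to 0.113 for Ezh2 and -0.0376 to 0.113 for Rnf2 in MPP2. The 95% intervals of KO against Het in HSC reached from 0.256 (Kdm2b) to 0.901 (Pcgf1) on either side of the log2 change. These are unadjusted intervals, and changes larger than their own half-width, such as that of Suz12, also missed the adjusted threshold.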
